A study of Homo sapiens with 6 samples.

Results

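The genes described here encode RNA polymerase II, the Mediator complex, the general transcription factors, and the elongation factors and SPT proteins that act with them. They were taken from the deposited table by symbol: POLR2 with a letter from A to M, MED with a number, TAF with a number, GTF2 with a letter from A to H, SUPT with a number, and ELL, in each case without a hyphen, plus TBP, CDK7, CDK8, CCNC, CCNH, MNAT1 and AFF4. This gave 98 genes of 15496 in the table, namely 15 of RNA polymerase II, 32 of Mediator, 24 TATA-binding protein and TAF genes, 16 general factor genes from TFIIA to TFIIH, and 11 elongation factor and SAGA SPT genes. Polyadenylated RNA was sequenced from the established human line HEK293, which derives from embryonic kidney, either given the solvent DMSO (3 libraries) or treated with B23, a compound that the study's title calls a quinolinol (3 libraries). The labels give no dose and no treatment time, and they call the libraries triplicates without naming separate cultures, so the p-values below reflect only how these 6 libraries vary, possibly for technical reasons alone. No genetic change is named for either group, and a single line was used.

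RNA polymerase II transcribes protein-coding genes, and its largest subunit carries a repeated C-terminal tail that is phosphorylated as transcription proceeds. Mediator links DNA-bound activators to the polymerase through its head, middle and tail modules, while a detachable kinase module can block that contact. TFIID, made of TBP and TAFs, recognises promoters together with TFIIA and TFIIB, TFIIE and TFIIF complete the complex, TFIIH opens the DNA and phosphorylates the tail, and DSIF, SPT6, FACT and the ELL and AFF4 proteins act once elongation has begun.

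In the bulk measurement used here, fewer transcripts per cell and fewer cells of a kind cannot be told apart. CPM are the reads of a gene divided by a value for its library, which includes a scaling factor of unknown method. They give each gene only relative to the other RNA of its library. A gene was called higher or lower when its adjusted p in limma was under 0.05, with adjustment over all 14792 genes tested. All 98 genes were expressed above the minimum of 1 CPM and were tested. Of these, 47 were higher and 40 lower in B23, and 11 were not called. Of all genes tested, 88.6% were called, 39.6% higher and 49.0% lower, so the 88.8% called among the 98 is near the background and is no result about these genes, while 48.0% were higher and 40.8% lower. Changes of at least 2-fold on the log2 scale were called higher for 15 of the 98 (15.3%, against 9.65% of all genes tested) and lower for 11 (11.2%, against 15.8%). The 3 B23 values lay wholly above or wholly below the 3 DMSO values for 86 of the 98 (87.8%), as they did for 88.9% of all genes tested. The median log2 difference of the 98 genes was 0.0051, beside -0.10 for all genes tested, and single genes ran from -2.52 to 2.596.

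**Figure D1:**
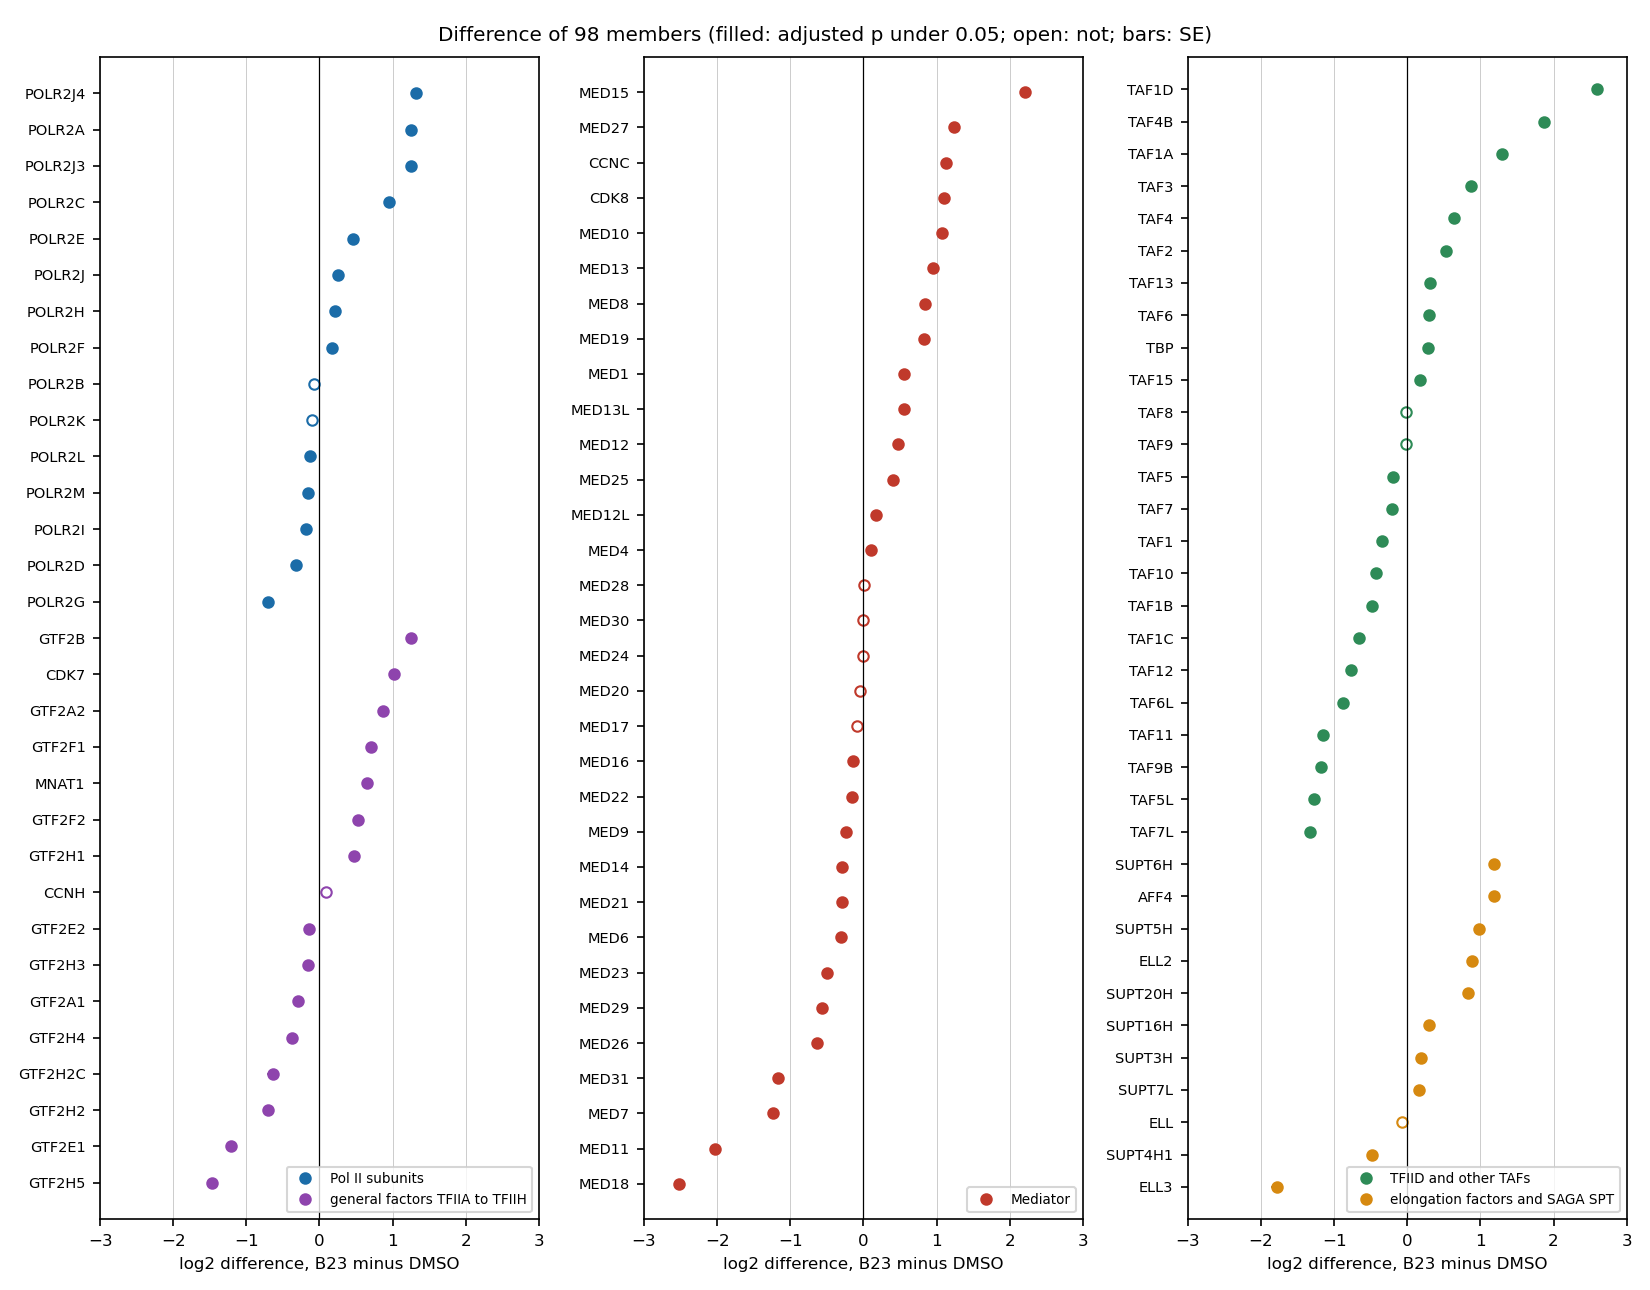
The log2 difference of B23 minus DMSO on the x axis is plotted for each of the 98 genes, in the colour of its complex, with bars for the SE of the limma fit and open points for genes that were not called. The 98 genes spread on both sides of 0 in every complex, from MED18 at -2.52 to TAF1D at 2.596.

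The balance of higher and lower genes depends on how the libraries are scaled. Among all called genes 55.3% were lower with the deposited CPM, and 67.5% were lower when each library was scaled to the same total of the listed genes, which moved the median of all genes from -0.10 to -0.34. With that scaling 7 of the 98 genes, in place of 15, were at least 2-fold higher, and the median of the 98 was -0.24. Recovered reads in the listed genes numbered 45732612 to 47444126 in DMSO and 40950318 to 45319519 in B23, and the listed CPM of a library added up to between 745216 and 753745 in the DMSO group and between 890367 and 900113 in the B23 group. Replicates correlated with r of 0.998 to 0.999 over genes, which are not independent, and their reads were not equal within counting error (chi-square divided by its degrees of freedom, 2.61 to 6.77). All 9 genes of a list of HEK293 markers were in the table and together gave 1017 to 1061 in DMSO and 1471 to 1549 CPM in B23. VIM (382 to 706 CPM) and KRT8 (111 to 308 CPM) rose most in CPM, and KRT18 and LIN28B also had higher means in B23. Lower means in B23 were found for PAX2 (5.85 to 1.38 CPM), SALL1 (40.4 to 20.8 CPM), NEFM and NEFL and, slightly, for CDH2. Of 14 markers of blood, endothelial, fibroblast, liver and muscle cells 3 were in the table, together giving 10.3 to 11.2 in DMSO and 11.8 to 13.5 CPM in B23, nearly all of it COL1A1.

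Overlapping genes leave part of the reads of some of these genes uncertain, and the strongest cases are given beside their values. On their own strand, exons are also shared by POLR2D with AC006011.1, by MED6 with AL357153.3, by MNAT1 with AL160236.2 and by TAF9 with AK6. On the opposite strand they are shared by POLR2B with NOA1 and IGFBP7, by POLR2C with DOK4, by POLR2I with TBCB, by POLR2J with LRWD1, by POLR2L with CD151, by TAF5 with ATP5MD, by TAF6 with AP4M1 and CNPY4, by TAF9 with RAD17, by TAF6L with TMEM223, by TAF1A with TAF1A-AS1, by GTF2H3 with EIF2B1 and by CCNH with RASA1. The same holds for SUPT6H with SDF2, SUPT7L with GPN1 and SLC4A1AP, SUPT20H with EXOSC8, and the partner genes NELFE with SKIV2L, CTR9 with EIF4G2, LEO1 with TMOD3 and ERCC2 with KLC3.

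Promoter sequences of the genes with the largest changes are given first, so that they stand beside the values. RefSeq promoters of the assembly GRCh38.p14 were found for 79 of the 98 genes, and 1 annotated start per gene was used. The windows of TAF1D, MED15 and GTF2B lie wholly inside the gene positions given below, so any start farther upstream was not covered. The 150 bases before the annotated start are shown 5′ to 3′ for the 3 genes that rose most (TAF1D, MED15 and TAF4B), the 2 that fell most (MED18 and MED11), TAF7, whose principal transcript has no intron, and GTF2B, the 1 called-higher gene with a TATAAA match. Capitals mark matches on either strand to TATAAA, which is the TATA box core, to CACGTG, which is an E-box, to the CCAAT box, to the GC box written GGGCGG, and to CGGAAG, which is the core of sites for ETS factors.
TAF1D (chr11:93741496-93741645, minus strand): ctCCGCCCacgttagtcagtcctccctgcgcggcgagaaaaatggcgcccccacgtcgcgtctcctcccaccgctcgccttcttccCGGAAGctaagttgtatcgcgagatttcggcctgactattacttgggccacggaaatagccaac
MED15 (chr22:20507460-20507609, plus strand): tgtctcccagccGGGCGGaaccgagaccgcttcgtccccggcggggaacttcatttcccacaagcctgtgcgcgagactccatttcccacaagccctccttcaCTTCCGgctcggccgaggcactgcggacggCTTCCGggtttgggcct
TAF4B (chr18:26226295-26226444, plus strand): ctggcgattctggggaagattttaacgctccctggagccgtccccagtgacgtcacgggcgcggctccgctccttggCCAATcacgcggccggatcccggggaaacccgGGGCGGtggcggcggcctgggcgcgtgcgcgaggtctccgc
MED18 (chr1:28328890-28329039, plus strand): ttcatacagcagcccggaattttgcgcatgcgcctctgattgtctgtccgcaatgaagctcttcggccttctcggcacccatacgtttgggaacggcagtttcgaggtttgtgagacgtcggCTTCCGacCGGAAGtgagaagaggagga
MED11 (chr17:4731278-4731427, plus strand): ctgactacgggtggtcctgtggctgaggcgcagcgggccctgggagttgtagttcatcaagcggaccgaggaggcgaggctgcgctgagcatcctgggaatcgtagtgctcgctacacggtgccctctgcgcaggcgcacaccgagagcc
TAF7 (chr5:141320785-141320934, minus strand): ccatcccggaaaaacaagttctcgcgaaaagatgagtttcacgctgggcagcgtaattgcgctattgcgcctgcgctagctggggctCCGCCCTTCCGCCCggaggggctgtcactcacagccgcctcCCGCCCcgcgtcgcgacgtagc
GTF2B (chr1:88891568-88891717, minus strand): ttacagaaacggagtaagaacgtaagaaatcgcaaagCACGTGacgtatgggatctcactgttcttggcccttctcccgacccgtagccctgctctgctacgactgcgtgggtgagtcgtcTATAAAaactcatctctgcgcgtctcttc
In the GTF2B window the TATAAA match begins 29 bases before the RefSeq start used, which lies inside the gene position given below. The MED18 promoter holds CGGAAG on both strands, 20 and 28 bases before the start, and the MED15 promoter holds it at 17 and 47 bases. In TAF7 a CGGAAG match overlaps a GGGCGG match, and in MED11 none of the 5 motifs was found in this window.

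Over the 250 bases before the start, CGGAAG was found in 39 of the 79 promoters (49.4%), against 27.9% of the 10575 promoters of tested genes and 16.5% of all 35116 promoters of that length. It was found in 19 of the 39 promoters of genes called higher (48.7%) and in 18 of the 33 promoters of genes called lower (54.5%). CACGTG was in 15.2% of the 79 promoters and 9.06% of those of tested genes, with 8 matches among higher and 4 among lower genes. TATAAA was in 4 of the 79 (5.06%, against 5.02%), CCAAT in 26.6% (against 35.0%) and GGGCGG in 59.5% (against 68.5%). A match describes the letters in the window, and no binding was measured.

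Among the 15 polymerase II genes, 8 were higher, 5 lower and 2 not called, with a median log2 difference of 0.17. With listed-gene total scaling 5 of the 15 were higher and 7 lower. The largest change in a core subunit was that of POLR2A, the catalytic subunit with the C-terminal tail (ENSG00000181222.15; GRCh38 chromosome 17, 7484366 to 7514616, plus strand). POLR2A stood at 162, 151 and 146 CPM in the DMSO libraries and 369.6, 353 and 372 CPM in the B23 libraries. Every B23 library was above every DMSO library, and the mean rose 2.38-fold, from 153 ± 8.12 to 365 ± 10.5 CPM (SD, n = 3; log2 difference 1.252 with SE 0.038, adjusted p = 1.46e-19). POLR2B, the second-largest subunit that forms the active centre with POLR2A, stood at 114, 120.2 and 123 in DMSO and 113, 116 and 110.3 CPM in B23. Those values overlapped and POLR2B was not called (log2 difference -0.074, adjusted p = 0.0522), although it was called lower in 4 alternatives. Its log2 difference was -0.46 under quantile normalization (adjusted p = 1.72e-10), -0.33 with listed-gene total scaling (adjusted p = 7.39e-09), -0.10 without DMSO replicate 1 (adjusted p = 0.0099) and -0.090 without B23 replicate 2 (adjusted p = 0.029).

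POLR2C, which with POLR2J starts the assembly of the enzyme, had 79.2, 79.5 and 79.9 in DMSO and 154, 151 and 157 CPM in B23. Its groups were far apart, and it rose 1.94-fold (log2 difference 0.95 with SE 0.033, adjusted p = 1.47e-18). The 2 genes of the stalk that stands out from the core, POLR2D and POLR2G, were both lower. POLR2G fell from 84.7 ± 1.37 to 51.6 ± 2.48 CPM and POLR2D from 109.9 ± 0.830 to 87.9 ± 0.785 CPM, 1.64-fold and 1.25-fold lower. Subunits shared with the other nuclear polymerases moved little. POLR2E rose 1.38-fold, with the call lost under quantile normalization, and POLR2F and POLR2H were called higher by 1.13-fold and 1.16-fold with the deposited scaling and had differences of -0.081 and -0.042, neither called, with listed-gene total scaling. POLR2I, a small zinc-binding subunit of this polymerase alone, was lower by 1.13-fold, a call lost with median-of-ratios scaling. POLR2K, at 56.5 ± 5.05 in DMSO and 52.6 ± 0.834 CPM in B23, was not called (log2 difference -0.10, adjusted p = 0.0674), but was called lower without DMSO replicate 1 (-0.17, adjusted p = 0.00029), under quantile normalization (-0.25) and with listed-gene total scaling (-0.35). POLR2L was called lower (log2 difference -0.12, adjusted p = 0.0248) while its groups overlapped, and that call ended when DMSO replicate 2 (adjusted p = 0.11) or B23 replicate 2 (adjusted p = 0.21) was left out, and with median-of-ratios, TMM and quantile scaling.

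The POLR2J copies on chromosome 7 rose. POLR2J3 stood at 5.00, 5.16 and 5.16 in DMSO and 12.4, 13.3 and 12.8 CPM in B23, and POLR2J4, annotated as a non-coding processed transcript, at 7.08, 6.72 and 8.26 in DMSO and 19.2, 18.4 and 19.6 CPM in B23. Both groups of values were well apart, with rises of 2.52-fold and 2.59-fold. POLR2J itself, which encodes the subunit, rose 1.20-fold and lost its call with listed-gene total scaling. Of the 50-base stretches in the transcripts of POLR2J3, 79.96% also occur in transcripts of other genes, as do 36.7% of those of POLR2J and 33.8% of those of POLR2J4, so the division of reads among these copies is uncertain. On their strand POLR2J3 also shares exons with AC093668.1, AC093668.2 and AC093668.3, and POLR2J4 with AC004951.2, AC004951.3, AC004951.4 and AC017116.2, besides UBE2D4 on the opposite strand. POLR2M, which encodes a protein that binds part of the polymerase pool, was called lower (34.03 ± 0.634 in DMSO and 30.5 ± 0.627 CPM in B23). It shares exons with GCOM1 on its strand, and its call was lost with median-of-ratios and TMM scaling.

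**Figure D2:**
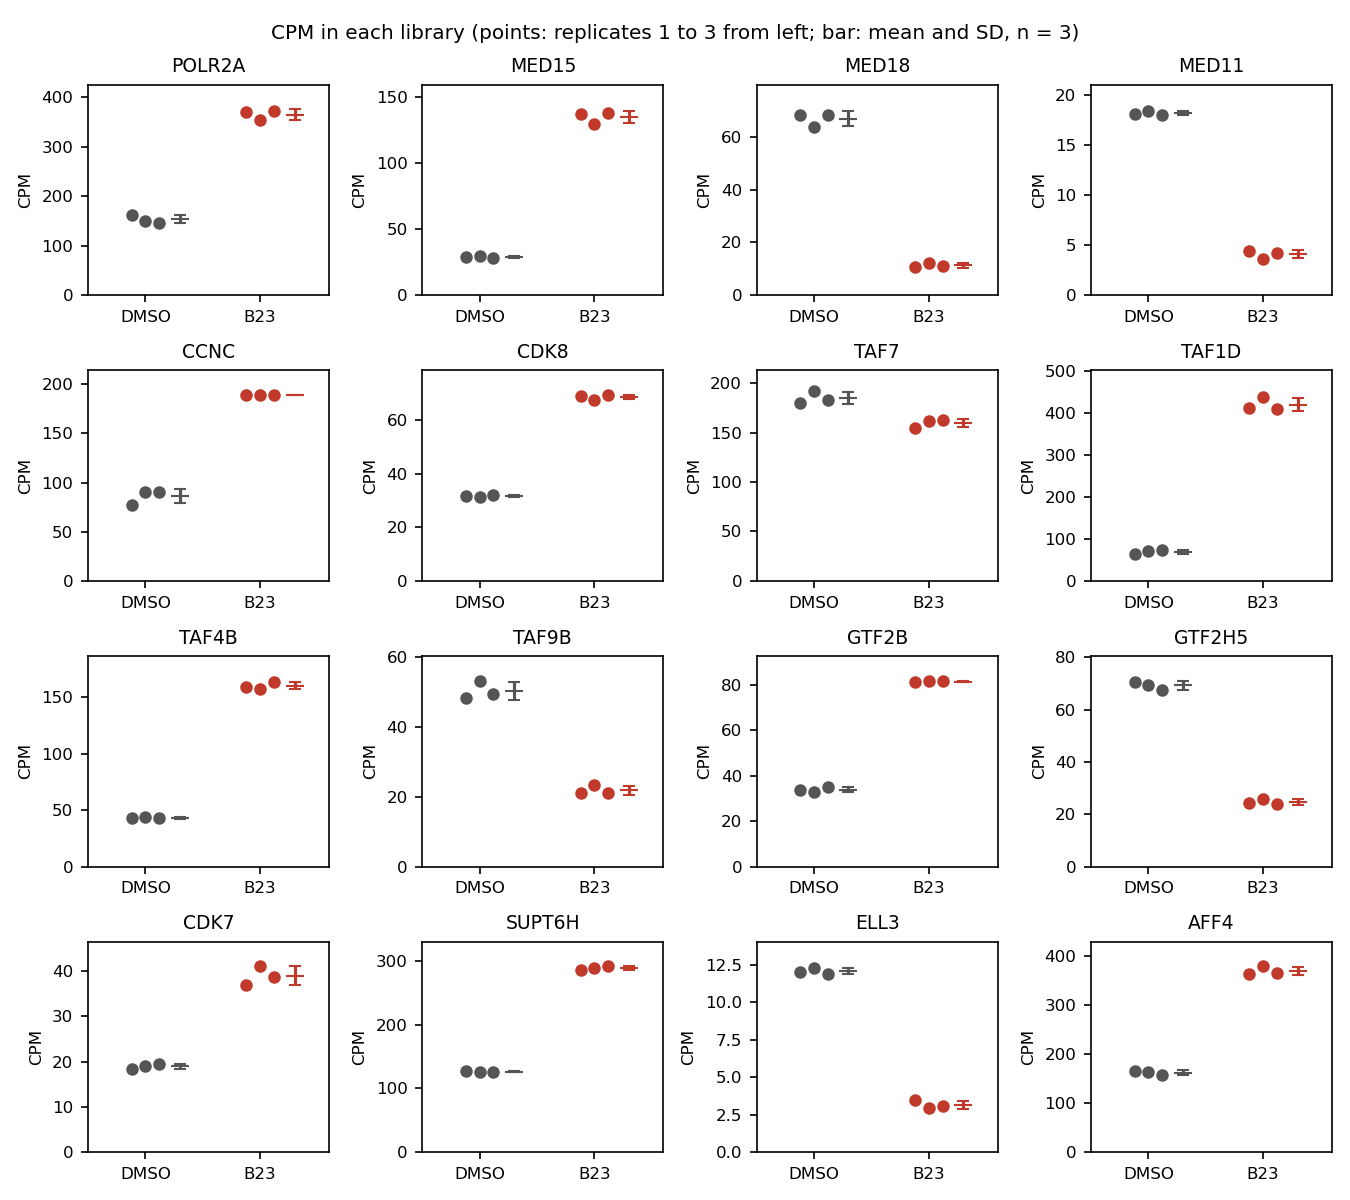
CPM on the y axis, each starting at 0, are plotted for 16 genes in the 3 DMSO and 3 B23 libraries, with the mean and SD (n = 3) beside the points. In each panel the 3 B23 points lie apart from the 3 DMSO points, with the B23 to DMSO ratio nearest to 1 in TAF7 (0.861) and the largest in TAF1D (6.07).

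Of the 32 Mediator genes, 14 were higher, 13 lower and 5 not called, and the median was -0.0022. The modules differed in their counts. The kinase module had 6 of 6 genes higher, and the head had 1 higher, 4 lower and 2 not called of 7. The middle and scaffold had 4 higher and 5 lower of 9. The tail, taken here as MED15, MED16, MED23 and MED24 only, had 1 higher, 2 lower and 1 not called of 4. MED25 to MED30 were grouped by number and not as a module, and had 2 higher, 2 lower and 2 not called of 6. Summed over their genes, the kinase module went from 371 ± 4.58 to 669 ± 9.30 CPM and the head from 255 ± 2.34 to 199 ± 1.65 CPM. The fall in the head sum was close to that of MED18 alone, with MED8 higher and MED6, MED11 and MED22 lower.

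In the head, MED18 showed the largest fall of the 98 genes (ENSG00000130772.13; chromosome 1, 28329002 to 28335967, plus strand). MED18, which binds the polymerase side of the head together with MED20, stood at 68.5, 63.6 and 68.4 CPM in the DMSO libraries and 10.7, 12.3 and 10.9 CPM in the B23 libraries. All B23 values were far below all DMSO values, and the mean fell 5.92-fold, from 66.8 ± 2.81 to 11.3 ± 0.857 CPM (log2 difference -2.52 with SE 0.051, adjusted p = 8.89e-23). Its partner MED20 had 19.9, 21.2 and 20.3 in DMSO and 18.2, 21.4 and 19.96 CPM in B23, overlapping, and was not called (log2 difference -0.047, adjusted p = 0.42), but was called higher under quantile normalization (0.16) and lower with listed-gene total scaling (-0.29). MED11, a small subunit that pairs with MED22, stood at 18.1, 18.4 and 18.02 CPM in the DMSO libraries and 4.45, 3.65 and 4.21 CPM in the B23 libraries. The B23 values were all lower, by 4.42-fold (log2 difference -2.02 with SE 0.069, adjusted p = 9.61e-19). MED22 itself went from 61.9 to 55.6 CPM, and its lower call was lost with median-of-ratios scaling. MED11 overlaps CXCL16 on the opposite strand by 85 exonic bases, and whether the counting used strand was not stated in any source used here. MED6 was also called lower, from 27.4 ± 1.43 to 21.9 ± 0.876 CPM. MED17, the subunit that holds the head together and that shares 2156 exonic bases with AP001273.2 on its strand, had 26.8 ± 1.81 in DMSO and 25.1 ± 0.912 CPM in B23 and was not called (log2 difference -0.088, adjusted p = 0.103), but was called lower without DMSO replicate 1 (log2 difference -0.14, adjusted p = 0.0092) and with listed-gene total scaling (-0.34). MED8 was the head gene called higher and rose 1.81-fold, from 33.7 ± 0.487 to 60.8 ± 0.515 CPM.

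In the middle module, MED10 rose 2.13-fold and MED7 fell 2.43-fold. MED10 stood at 25.4, 25.9 and 25.7 in DMSO and 56.2, 54.6 and 52.8 CPM in B23, and MED7, which in yeast forms a hinge with MED21 and a knob with MED31, at 20.7, 21.03 and 22.1 in DMSO and 8.84, 8.94 and 8.55 CPM in B23. Neither gene had overlapping groups (log2 difference 1.07 with SE 0.040, adjusted p = 6.39e-18, and log2 difference -1.23 with SE 0.054, adjusted p = 1.65e-16). The MED7 partners MED31 and MED21 were lower as well, MED31 by 2.36-fold (12.1 ± 0.919 to 5.12 ± 0.279 CPM) and MED21 by 1.24-fold (29.6 ± 1.87 to 23.96 ± 0.524 CPM). MED31 shares 1227 exonic bases with TXNDC17 on the opposite strand. MED1, the main contact of nuclear receptors, rose from 129 ± 5.30 to 190.0 ± 2.85 CPM (log2 difference 0.56 with SE 0.035, adjusted p = 2.03e-13). MED19 rose 1.80-fold, while MED14, the backbone that joins the modules, fell from 92.7 ± 2.61 to 75.6 ± 1.20 CPM (log2 difference -0.29 with SE 0.035, adjusted p = 2.97e-08). MED9 was lower by 1.19-fold, a call lost under quantile normalization. MED4 was higher by 1.08-fold, a call that ended when DMSO replicate 2 was left out (adjusted p = 0.076), and its difference was -0.14 and called lower with listed-gene total scaling.

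MED15, a tail subunit that binds activators, had the second-largest rise of the 98 genes (ENSG00000099917.17; chromosome 22, 20495913 to 20587632, plus strand). Its values were 28.8, 29.3 and 28.3 CPM in the DMSO libraries and 137, 130.0 and 138 CPM in the B23 libraries. The B23 libraries were all higher, and the mean rose 4.69-fold, from 28.8 ± 0.519 to 135 ± 4.45 CPM (log2 difference 2.21 with SE 0.037, adjusted p = 1.67e-24). None of the other 3 genes grouped here as the tail was called higher. MED23 fell from 49.8 ± 1.10 to 35.1 ± 1.03 CPM (log2 difference -0.50 with SE 0.040, adjusted p = 1.81e-11), MED16 was called lower with overlapping groups (52.1 ± 2.14 in DMSO and 47.3 ± 3.55 CPM in B23, log2 difference -0.14, adjusted p = 0.0103), and MED24 was not called at 69.7 ± 1.76 in DMSO and 69.4 ± 2.55 CPM in B23. MED16 lost its call when B23 replicate 2 was left out (adjusted p = 0.091) and with median-of-ratios and TMM scaling. MED24 was called higher, by 0.095 on the log2 scale, with median-of-ratios scaling and lower under quantile normalization (-0.23) and with listed-gene total scaling (-0.26).

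Among MED25 to MED30, MED27 rose 2.38-fold, from 20.03 ± 0.816 to 47.8 ± 0.507 CPM (log2 difference 1.23 with SE 0.043, adjusted p = 1.49e-18). Of its 50-base stretches 22.9% occur elsewhere, mostly in the pseudogene CRSP8P. MED29 fell from 101 ± 2.44 to 67.9 ± 1.91 CPM, and MED26, the subunit that recruits the ELL and AFF4 elongation machinery, fell from 29.1 ± 0.539 to 18.6 ± 0.416 CPM (log2 difference -0.63 with SE 0.045, adjusted p = 2.27e-12). MED26 shares exons with AC008764.1 and AC008764.4 on its strand, so part of its reads is uncertain. MED25 rose 1.33-fold. MED28 and MED30 were not called, at 74.9 ± 2.12 in DMSO and 75.3 ± 0.330 CPM in B23 for MED28 and 13.03 ± 0.868 in DMSO and 13.04 ± 0.832 CPM in B23 for MED30, and their calls depended on the scaling. Both were called lower, at -0.24, with listed-gene total scaling. MED28 was also called lower under quantile normalization (-0.25) and higher with median-of-ratios (0.11) and TMM (0.083) scaling, and MED30 was called higher under quantile normalization (0.33).

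The kinase module was the only one of these modules in which every gene of the set was called higher with the deposited CPM. Of all tested genes 39.6% were called higher. With listed-gene total scaling MED12L alone of the 6 lost that call, at -0.066. CCNC, the cyclin of the module, stood at 77.6, 90.4 and 90.4 CPM in the DMSO libraries and 189, 189 and 189 CPM in the B23 libraries. DMSO replicate 1 was lower than the other DMSO libraries, and all B23 values were above them (log2 difference 1.13 with SE 0.047, adjusted p = 6.58e-14), a rise of 2.20-fold. CDK8, the kinase, stood at 31.9, 31.2 and 31.9 in DMSO and 69.1, 67.7 and 69.3 CPM in B23. Its rise of 2.17-fold left the groups well apart (log2 difference 1.11 with SE 0.037, adjusted p = 7.55e-19). MED13, which docks the module onto Mediator, rose from 98.98 ± 3.43 to 191 ± 7.58 CPM and MED12, the activator of the kinase, from 47.7 ± 0.959 to 66.7 ± 1.49 CPM. The paralogue MED13L rose 1.47-fold, and MED12L was higher by 1.14-fold (log2 difference 0.18, adjusted p = 0.00887), a call that ended without DMSO replicate 2 (adjusted p = 0.064). CDK19, the paralogue of CDK8 that the symbol rule does not take, was slightly lower, at 45.3 ± 0.989 in DMSO and 41.6 ± 1.50 CPM in B23 (log2 difference -0.12, adjusted p = 0.00699).

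TBP and the TAFs were divided between both directions. Of all 24, 10 were higher, 12 lower and 2 not called, with a median of -0.11. TBP, which bends DNA at the TATA box, went from 45.7 ± 0.981 to 55.8 ± 1.85 CPM, a rise of 1.22-fold whose call was lost with listed-gene total scaling. TBP and the 13 core TAFs of TFIID had 6 higher, 6 lower and 2 not called, and their summed CPM were 688 ± 11.8 in DMSO and 681 ± 2.30 in B23. As a share of the listed CPM, that sum was 0.0917% in DMSO and 0.0762% in B23. TAF1, the scaffold of TFIID, fell from 49.2 ± 2.13 to 38.6 ± 1.94 CPM (log2 difference -0.35 with SE 0.043, adjusted p = 7.05e-08). TAF3, which reads trimethylated histone H3 at promoters, rose 1.84-fold, and TAF4 and TAF2 rose 1.57-fold and 1.45-fold. TAF11 showed the largest fall of the core TAFs, at 53.6, 52.5 and 48.8 in DMSO and 22.98, 23.1 and 22.9 CPM in B23. The B23 values were all lower, by 2.25-fold (log2 difference -1.15 with SE 0.043, adjusted p = 6.33e-18), and 185 exonic bases overlap UHRF1BP1 on the opposite strand.

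Within the histone-fold pairs of TFIID the calls of the partners differed, and the differences between partners were not tested. TAF13, the partner of TAF11, rose 1.25-fold, a call lost with listed-gene total scaling. TAF12, the partner of TAF4, fell from 25.01 ± 0.616 to 14.4 ± 0.433 CPM (log2 difference -0.78 with SE 0.049, adjusted p = 1.86e-13), while TAF4 rose. TAF6 was higher by 1.23-fold and its partner TAF9, at 72.7 ± 1.30 in DMSO and 71.98 ± 1.33 CPM in B23, was not called, and the TAF6 call was lost with listed-gene total scaling. TAF10 fell 1.34-fold, whereas its partner TAF8, at 26.7 ± 0.240 in DMSO and 26.4 ± 0.508 CPM in B23, was not called. TAF9 was called higher, by 0.086 on the log2 scale, with median-of-ratios scaling and lower under quantile normalization (-0.26) and with listed-gene total scaling (-0.27), where TAF8 was also called lower (-0.26). TAF10 shares 593 exonic bases with AC091564.7 on its strand and 2374 with ILK on the opposite one, so its value is uncertain. TAF5 was lower by 1.15-fold, a call lost under quantile normalization.

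TAF7, which binds TAF1 and restrains it until initiation, had the highest CPM per kb of merged exons in the set. Its principal coding transcript has 1 exon of 2334 bases (ENSG00000178913.7; chromosome 5, 141260225 to 141320821, minus strand). Other annotated transcripts of TAF7 have up to 3 exons. Its values were 180.4, 192 and 183 CPM in the DMSO libraries and 155, 161 and 162 CPM in the B23 libraries. Each B23 library lay below each DMSO library, and the mean went from 185 ± 5.97 to 159.5 ± 4.13 CPM, 1.16-fold lower (log2 difference -0.21 with SE 0.035, adjusted p = 3.49e-06). Over all alternatives the difference ran from -0.70 to -0.11 and stayed called. No other of the 98 genes has a principal coding transcript of 1 exon. Among 282 tested coding genes of that kind, 237 were lower, 31 higher and 14 not called, with a median log2 difference of -1.13 and quartiles of -1.79 and -0.46. TAF7 lay above the upper quartile, with 51 of those genes above it and 230 (81.6%) below.

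The TAF paralogues, SAGA TAFs and TAF15 had 2 genes higher and 4 lower, with a median of -1.03. TAF4B, a relative of TAF4 known from germ cells and B cells, stood at 42.9, 44.2 and 42.8 CPM in the DMSO libraries and 159, 157 and 164 CPM in the B23 libraries. The B23 values were all higher, and the mean rose 3.70-fold, from 43.3 ± 0.790 to 160.1 ± 3.15 CPM (log2 difference 1.87 with SE 0.034, adjusted p = 9.69e-24). TAF5L and TAF6L, which take the places of TAF5 and TAF6 in SAGA, were lower. TAF5L went from 131 ± 6.96 to 53.8 ± 1.37 CPM (log2 difference -1.28 with SE 0.039, adjusted p = 1.35e-19) and TAF6L from 23.6 ± 1.09 to 12.6 ± 0.922 CPM. TAF7L, known from the testis, had 9.02, 9.64 and 8.98 in DMSO and 3.38, 3.35 and 3.37 CPM in B23, and TAF9B had 48.3, 53.1 and 49.5 in DMSO and 21.2, 23.4 and 20.98 CPM in B23. For neither gene did the groups overlap, and they fell 2.74-fold and 2.30-fold. TAF15, an RNA-binding protein, was higher by 1.13-fold with the deposited CPM, lower by 0.34 on the log2 scale under quantile normalization and not called, at -0.074, with listed-gene total scaling.

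SL1, the TBP complex of RNA polymerase I at ribosomal RNA genes, has 4 TAFs of its own, of which TAF1A and TAF1D were higher and TAF1B and TAF1C lower. TAF1D had the largest rise of the 98 genes (ENSG00000166012.16; chromosome 11, 93729948 to 93784391, minus strand). Its values were 63.7, 70.8 and 73.1 CPM in the DMSO libraries and 412, 438 and 410.4 CPM in the B23 libraries. Every B23 value was far above every DMSO value, and the mean rose 6.07-fold, from 69.2 ± 4.92 to 420.3 ± 15.6 CPM (log2 difference 2.596 with SE 0.044, adjusted p = 2.56e-21). TAF1A rose 2.52-fold, from 10.6 ± 0.838 to 26.7 ± 1.01 CPM (log2 difference 1.30 with SE 0.057, adjusted p = 1.39e-16). TAF1B fell from 32.8 ± 0.735 to 23.3 ± 0.501 CPM and TAF1C from 31.7 ± 2.12 to 19.9 ± 0.376 CPM. The summed CPM of the 4 genes went from 144 ± 2.98 to 490.1 ± 16.7, of which TAF1D made up most in B23. TAF1D overlaps CEP295 by 250 and MED17 by 88 exonic bases on the opposite strand, where it also overlaps AP001273.2.

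TAF1D also holds 8 small nucleolar RNA genes on its strand, which are cut from its introns. Of the other genes of the set only MED24 and GTF2A1 hold such genes, 1 each, with log2 differences of -0.0061 and -0.29. Among 288 tested genes that hold a small nucleolar RNA gene on their strand, 165 were higher, 92 lower and 31 not called, with a median of 0.24. Of the 35 with at least 3, 24 were higher and 9 lower, with a median of 0.30 and a range of -0.77 to 3.84. The place of these RNAs in the TAF1D result was not tested.

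The 16 general factor genes divided into 7 higher, 8 lower and 1 not called, with a median of -0.028. GTF2B, which encodes TFIIB, the bridge between TBP and the polymerase, stood at 33.7, 32.98 and 34.9 CPM in the DMSO libraries and 80.98, 81.6 and 81.5 CPM in the B23 libraries. The groups were far apart in relation to their spread, and the mean rose 2.40-fold, from 33.9 ± 0.984 to 81.4 ± 0.351 CPM (log2 difference 1.252 with SE 0.037, adjusted p = 6.49e-20; ENSG00000137947.11, chromosome 1, 88852932 to 88891944, minus strand). The small TFIIA gene GTF2A2 rose from 31.7 ± 1.34 to 58.3 ± 0.863 CPM (log2 difference 0.87 with SE 0.040, adjusted p = 4.56e-16), and GTF2A1, which encodes the large TFIIA subunits, fell from 57.1 ± 1.25 to 46.6 ± 1.63 CPM. Both TFIIF genes were higher, GTF2F1 by 1.64-fold and GTF2F2 by 1.45-fold. Both TFIIE genes were lower with the deposited CPM. GTF2E1 had 14.03, 15.3 and 15.9 in DMSO and 6.14, 6.35 and 6.10 CPM in B23, and its lower B23 values gave a fall of 2.43-fold (log2 difference -1.22 with SE 0.063, adjusted p = 4.39e-15). It overlaps RABL3 on the opposite strand by 158 exonic bases. GTF2E2 was lower by 1.11-fold, a call lost with median-of-ratios and TMM scaling.

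Of 9 TFIIH genes, 3 were higher, 5 lower and 1 not called. CDK7, the kinase that phosphorylates the polymerase tail, stood at 18.3, 19.04 and 19.6 in DMSO and 37.02, 41.1 and 38.8 CPM in B23. All B23 values were higher, by 2.05-fold (log2 difference 1.02 with SE 0.047, adjusted p = 4.25e-16). MNAT1, the assembly factor of the kinase, rose 1.58-fold, from 34.5 ± 1.45 to 54.7 ± 3.64 CPM. Its cyclin CCNH, at 32.7 ± 1.24 in DMSO and 34.7 ± 1.12 CPM in B23, was not called (log2 difference 0.088, adjusted p = 0.0591). CCNH was called higher without DMSO replicate 3 (log2 difference 0.12, adjusted p = 0.021), with median-of-ratios (0.19), TMM (0.16) and quantile (0.10) scaling, and lower, at -0.16, with listed-gene total scaling. In the core, GTF2H5, the smallest subunit, had 70.7, 69.6 and 67.6 CPM in the DMSO libraries and 24.4, 26.05 and 23.9 CPM in the B23 libraries. The B23 values were all lower, by 2.80-fold (log2 difference -1.47 with SE 0.041, adjusted p = 2.71e-20). GTF2H2 fell from 11.3 ± 0.190 to 6.76 ± 0.606 CPM and its copy GTF2H2C from 6.03 ± 0.350 to 3.70 ± 0.324 CPM. Because 65.1% of the 50-base stretches of GTF2H2 and 76.2% of those of GTF2H2C occur in other genes, the reads of these copies cannot be assigned with certainty, and the GTF2H2C call was lost under quantile normalization. GTF2H4 fell 1.30-fold, with 72.7% of its stretches shared, mainly with VARS2, and GTF2H3 fell 1.12-fold, a call lost with median-of-ratios scaling. GTF2H1 rose 1.39-fold. The ATPase genes of TFIIH, ERCC2 and ERCC3, were lower by 1.37-fold and 1.14-fold.

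Of the 11 elongation factor and SAGA SPT genes, 8 were higher, 2 lower and 1 not called, with a median of 0.29, and their summed CPM went from 796 ± 3.15 to 1338 ± 14.7. The shares over all genes tested were 39.6% higher and 49.0% lower. With listed-gene total scaling 5 of the 11 were higher and 4 lower. SUPT6H, which encodes the histone chaperone SPT6, stood at 127, 125 and 126 CPM in the DMSO libraries and 285, 288 and 291 CPM in the B23 libraries. The groups did not overlap, and the mean rose 2.28-fold, from 126 ± 0.881 to 288 ± 3.28 CPM (log2 difference 1.19 with SE 0.032, adjusted p = 1.02e-20). AFF4, the scaffold of the super elongation complex, stood at 167, 163 and 158 in DMSO and 363, 379 and 367 CPM in B23. It rose 2.27-fold, with all B23 values above all DMSO values (log2 difference 1.18 with SE 0.034, adjusted p = 4.52e-20). Within DSIF, SUPT5H rose 1.98-fold, from 108 ± 2.46 to 215 ± 1.72 CPM (log2 difference 0.98 with SE 0.033, adjusted p = 6.34e-19), and SUPT4H1 fell 1.41-fold, from 73.1 ± 1.93 to 51.9 ± 0.918 CPM (log2 difference -0.49 with SE 0.036, adjusted p = 5.31e-12). SUPT4H1 shares 61.3% of its 50-base stretches with other genes, chiefly AC004687.2 on its strand, where it also overlaps RNF43 by 143 exonic bases. SUPT16H, the large subunit of the histone chaperone FACT, rose from 152 ± 4.40 to 187 ± 4.43 CPM with the deposited CPM, lost that call with listed-gene total scaling and was lower by 0.20 on the log2 scale under quantile normalization.

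The ELL genes went in different directions. ELL2, an elongation factor known for its role in antibody-secreting cells, rose 1.85-fold, from 39.2 ± 0.475 to 72.6 ± 2.09 CPM (log2 difference 0.88 with SE 0.037, adjusted p = 7.33e-17). ELL had 22.9, 25.1 and 23.3 in DMSO and 22.6, 22.4 and 22.7 CPM in B23, and was not called although its groups did not overlap (log2 difference -0.074, adjusted p = 0.144), but was called lower with listed-gene total scaling (-0.32). ELL3 had 12.05, 12.3 and 11.9 in DMSO and 3.46, 2.94 and 3.07 CPM in B23, a fall of 3.83-fold (log2 difference -1.79 with SE 0.072, adjusted p = 3.38e-17). The ELL3 values are within 5% of those listed for the overlapping AC018512.1 in all 6 libraries, so they may be the same reads, and ELL3 also overlaps PDIA3 and SERF2, which have far higher counts, on the opposite strand. Of the SAGA SPT genes, SUPT20H rose 1.79-fold, from 27.3 ± 0.678 to 48.9 ± 1.07 CPM (log2 difference 0.83 with SE 0.040, adjusted p = 1.30e-15). SUPT3H and SUPT7L were higher by 1.15-fold and 1.12-fold with the deposited CPM, and with listed-gene total scaling SUPT3H was not called at -0.054 and SUPT7L was called lower at -0.089.

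Other genes of the same processes were looked at from a list of 53 partners, of which 52 were in the table. Among these 28 were higher (53.8%, against 39.6% of all genes tested) and 21 lower (40.4%, against 49.0%). The other 3 (CTR9, LEO1 and KAT2B) were not called, and the median was 0.20. The partners of the elongation factors included SSRP1, the second FACT subunit, which rose from 304 ± 6.06 to 632 ± 16.1 CPM (log2 difference 1.06 with SE 0.035, adjusted p = 5.68e-19), and IWS1, the partner of SPT6, which rose 2.54-fold. In NELF, which holds the paused polymerase, NELFCD rose 2.35-fold and NELFA 2.31-fold, NELFB was also higher and NELFE lower, by 1.07-fold. In the PAF1 complex CDC73 rose 2.09-fold, 2 further genes were higher, 1 was lower and 2 were not called. Of 7 partners of AFF4 and ELL, 2 were higher, among them EAF2 (2.23 to 5.97 CPM), and 5 were lower.

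Of 13 genes for polymerase assembly and for the phosphatases of its tail, 10 were higher and 3 lower. Of all genes tested, 39.6% were higher and 49.0% lower. RPRD1B, which binds the phosphorylated tail, rose 2.41-fold, and RPAP3, an assembly factor of the polymerase, rose 1.99-fold. The 11 SAGA partners had 5 higher and 5 lower genes. Within the SAGA deubiquitinase, USP22, the enzyme, rose from 189 ± 2.30 to 363 ± 9.89 CPM (log2 difference 0.94 with SE 0.034, adjusted p = 2.64e-18), while its adaptor ATXN7L3 fell from 82.9 ± 1.26 to 40.5 ± 2.56 CPM (log2 difference -1.03 with SE 0.041, adjusted p = 3.57e-17).

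Levels of different genes were compared as CPM per kilobase of merged exons. Merged exons join those of all annotated transcripts of a gene, so ranks among genes depend on this choice of length. POLR2G, for example, has 1.923 kb of merged exons and a principal transcript of 827 bases. In DMSO the highest were TAF7, which went from 68.02 to 58.6 CPM per kb, POLR2G, from 44.1 to 26.8 CPM per kb, and SUPT4H1, from 35.2 to 24.99 CPM per kb. In B23 TAF7 was followed by GTF2F1, from 33.4 to 54.7 CPM per kb, and TAF1D, from 8.22 to 49.9 CPM per kb. MED15 was among the lower Mediator genes in DMSO and went from 2.78 to 13.03 CPM per kb, while MED18 was the highest Mediator gene in DMSO and went from 33.1 to 5.59 CPM per kb. POLR2A went from 18.3 to 43.7 CPM per kb. The lowest of the set was MED12L in DMSO, at 0.798 CPM per kb, and GTF2H2C in B23, at 0.529.

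The spread of the levels among the genes was larger in B23. The SD of log2 CPM per kb over the 98 genes was 1.245 to 1.261 in the 3 DMSO libraries and 1.46 in each B23 library. Their summed CPM went from 5128 ± 24.7 to 6827 ± 32.1 (n = 3), or from 0.684% to 0.764% of the listed CPM. In the polymerase II genes, the POLR2J copies with POLR2M, the head, the tail, TBP with the core TAFs, the SAGA SPT genes and the genes of DSIF, SPT6 and FACT the SD was instead lower in every B23 library than in every DMSO library. The last of these are given in full, chosen after their values were seen. In DMSO they stood at 35.2 (SUPT4H1), 12.7 (SUPT5H), 11.9 (SUPT6H) and 21.3 (SUPT16H) CPM per kb and in B23 at 24.99, 25.04, 27.1 and 26.1. The SD of their log2 levels was 0.72 to 0.76 in DMSO and 0.052 to 0.063 in B23. For the POLR2J copies with POLR2M the SD was 1.07 to 1.19 in DMSO and 0.30 to 0.38 in B23. All these spreads depend on the merged-exon lengths taken, and whether they hold with other lengths was not tested. The closeness of the DSIF, SPT6 and FACT genes in B23 is therefore described for these lengths only. The level of SUPT4H1 is also uncertain, since 61.3% of its sequence stretches occur in other genes. Shared sequence likewise leaves the levels of the POLR2J copies uncertain.

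**Figure D3:**
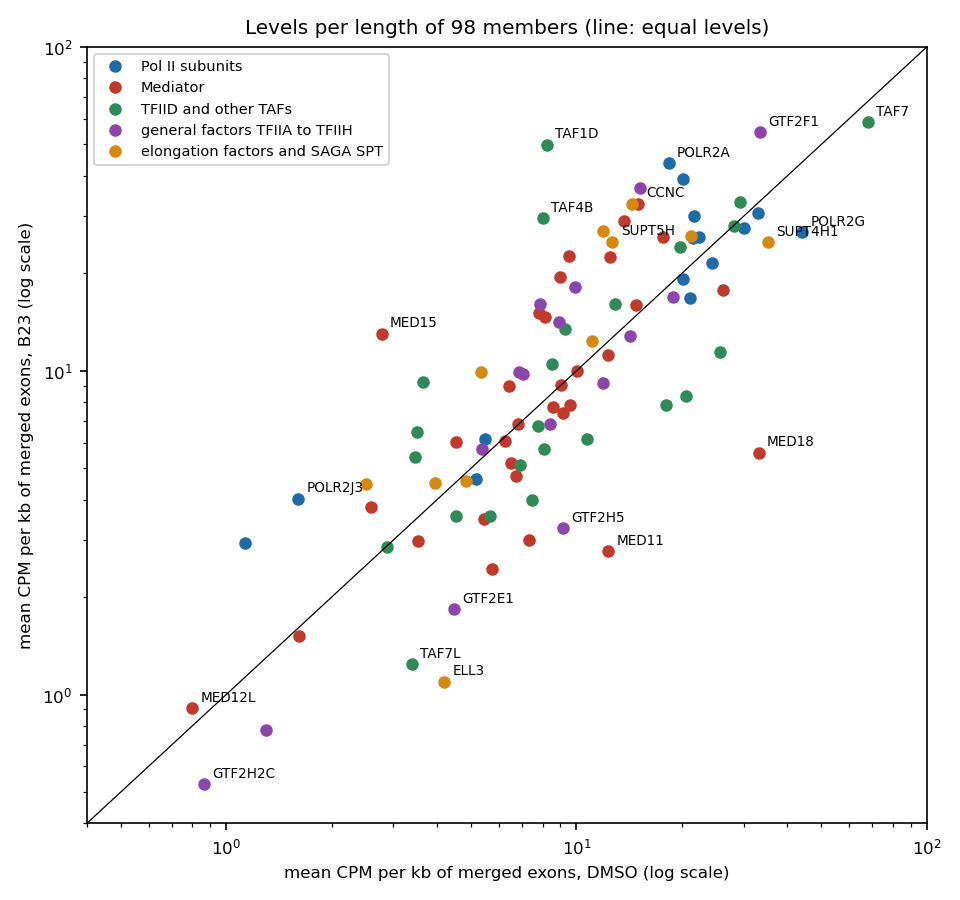
Mean CPM per kb of merged exons in B23 (y axis) are plotted against those in DMSO (x axis), both on log scales, for the 98 genes, with a line of equal levels. TAF7 is the highest gene in both groups, near the line, TAF1D, TAF4B and MED15 lie farthest above it, and MED18, MED11 and ELL3 lie farthest below.

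Related genes were compared by the ratio of their CPM per kb in each library. The size of a ratio depends on the merged-exon lengths taken, and its fold change between the groups does not. In 11 of 12 pairs the ratios of the 3 B23 libraries did not overlap those of the 3 DMSO libraries, and each of those pairs had the smallest p that 3 against 3 libraries allow in a two-sided exact permutation test, 0.1, or 0.11 after adjustment over the 12 pairs, so this design cannot reach 0.05 for a pair. TAF4B stood at 2.32 ± 0.12 times the level of TAF4 in DMSO and 5.48 ± 0.21 times in B23 (SD, n = 3). TAF9B went from 0.638 ± 0.021 to 0.280 ± 0.017 times TAF9, TAF5L from 2.64 ± 0.13 to 1.24 ± 0.040 times TAF5, TAF6L from 0.883 ± 0.10 to 0.379 ± 0.014 times TAF6, and TAF7L from 0.0499 to 0.0212 times TAF7. TAF4B gained on its relative, and the other 4 TAF paralogues were lower relative to theirs.

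In the kinase module CDK19 went from 0.676 ± 0.024 to 0.286 ± 0.014 times CDK8, MED13L from 0.331 to 0.251 times MED13 and MED12L from 0.124 to 0.101 times MED12. ELL2 went from 1.11 ± 0.049 to 2.16 ± 0.078 times ELL, and ELL3 from 0.871 to 0.239 times ELL. POLR2J3 went from 0.0747 to 0.157 times POLR2J. For GTF2H2C and GTF2H2 the ratios overlapped, at 0.665 ± 0.028 in DMSO and 0.681 ± 0.073 in B23 (exact permutation p = 0.8). Scaling of whole libraries cancels in these ratios, but not the shared sequence of the POLR2J and GTF2H2 copies.

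**Figure D4:**
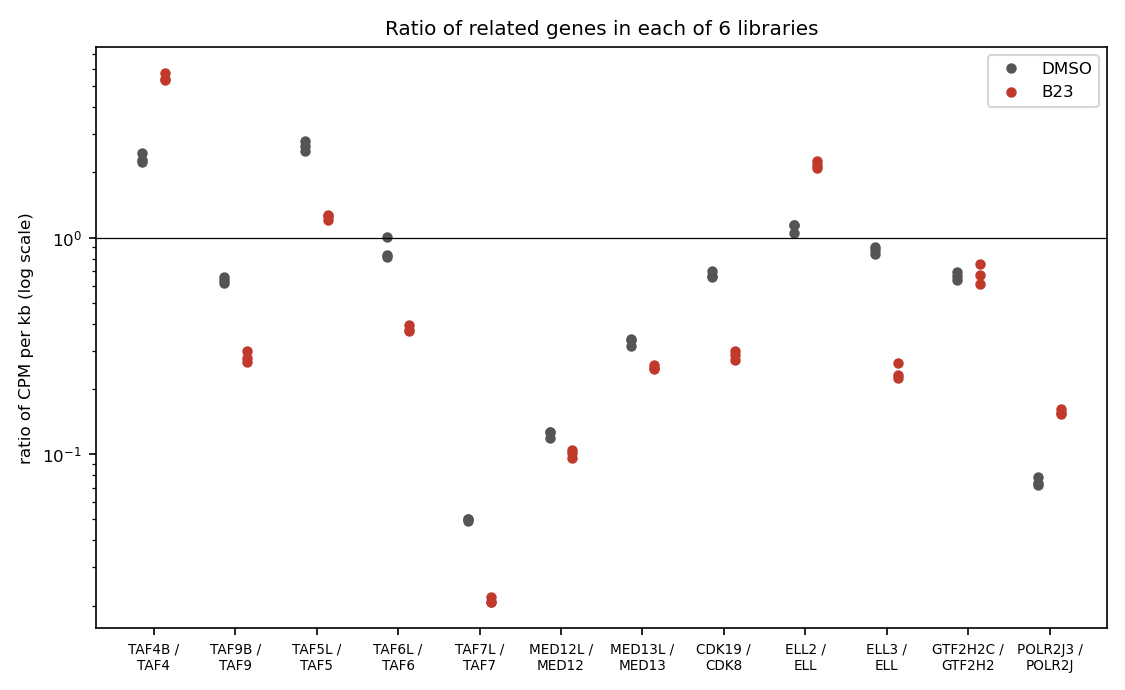
The ratio of the CPM per kb of 2 related genes (y axis, log scale) is plotted for 12 pairs in each of the 3 DMSO and 3 B23 libraries, with a line at equal levels. TAF4B, ELL2 and POLR2J3 gained on their relatives in B23, 8 pairs went the other way, and the GTF2H2C and GTF2H2 ratios overlap.

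Exon number was compared with the differences because TAF7 is without introns in its principal transcript. All tested coding genes with 2 to 4 exons had a median of -0.55, with 21.2% higher and 69.3% lower. Of the 20 genes of the set in that class, 3 were higher, 12 lower and 5 not called, with a median of -0.20. MED18, MED11 and GTF2H5, with 3 exons each, are among them, as is MED10, which has 4 exons and rose. With 5 to 8 exons 16 of 28 were higher and 12 lower, with a median of 0.17 against -0.13 for all coding genes of that size. Of the latter, 37.3% were higher and 51.1% lower. The medians were 0.036 against 0.060 for 9 to 12 exons (14 genes) and 0.19 against 0.14 for 13 to 20 exons (19 genes). For 21 or more exons they were 0.48 against 0.15 (15 genes, of which 10 were higher, 3 lower and 2 not called). Of all coding genes with 21 or more exons, 52.9% were higher and 35.1% lower.

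Across genes, Spearman's rho between exon number and log2 difference was 0.33 over the 97 coding genes of the set and 0.30 over 13211 coding genes tested. These are descriptions across genes of the same 6 libraries, which are not independent replicates. With the length of the gene rho was 0.34 in the set and 0.14 over all coding genes, and with the length of the transcript 0.055 and 0.011. The coding transcript of POLR2A taken for the exon count has 10 exons and 2083 bases, of 8.355 kb of merged exons. Another annotated transcript has 29 exons. POLR2A is therefore counted among the genes with 9 to 12 exons, and its place there is uncertain.

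**Figure D5:**
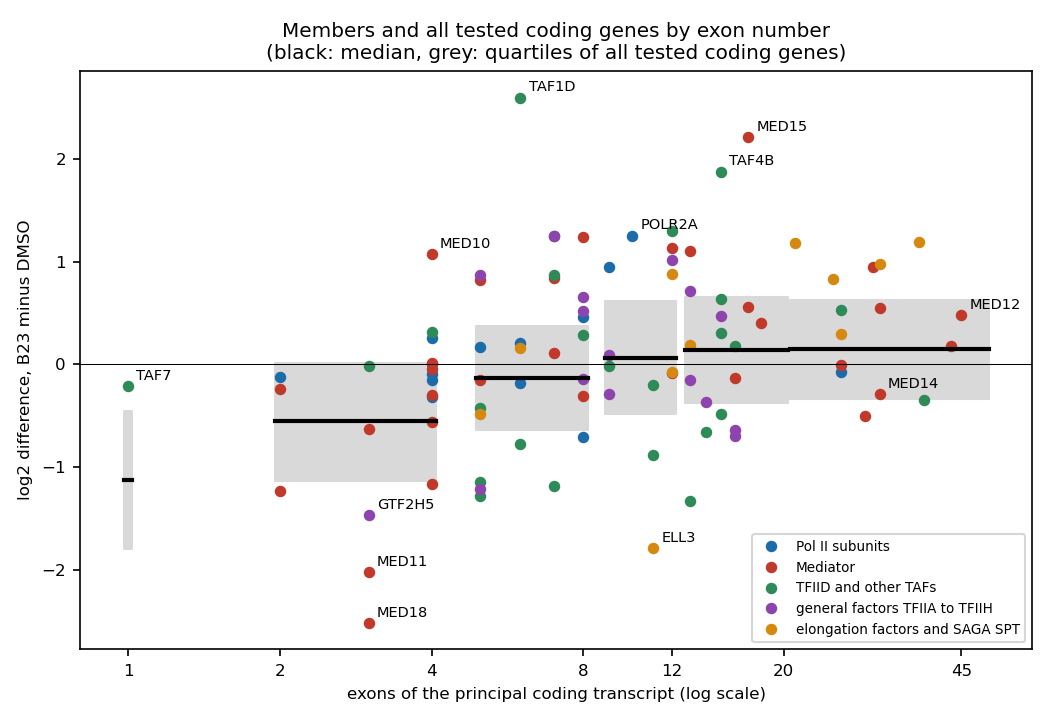
The log2 difference of B23 minus DMSO (y axis) is plotted against the exons of the principal coding transcript (x axis, log scale) for the 97 coding genes of the set, with the median (black) and quartiles (grey) of all tested coding genes in 6 classes of exon number. TAF7 at -0.21 lies above the grey band of 1-exon genes, whose upper quartile is -0.46. TAF1D at 2.596 and MED18 at -2.52 lie far outside the bands of their classes. POLR2A is plotted at the 10 exons of the transcript used.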

How the data were processed

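Polyadenylated RNA of 3 DMSO and 3 B23 libraries of HEK293 cells was made into stranded mRNA libraries, as the labels' protocols state. The aligner STAR 2.6.1d, SAMtools, HTSeq, edgeR and the build hg38 are named, without settings, in the submitters' processing notes. The authors deposited CPM for 15496 symbols, with 1 column per library. The values are whole multiples of 1 read, worth 0.0158 to 0.0217 CPM, and 100% came out whole within 0.001 reads. The divisors carry a scaling factor of unknown method, and neither it nor the strand setting of the counting is described in the labels.

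The 14792 genes that averaged 1 CPM or more were tested on log2(CPM + 0.5) with limma 3.58.1 (R 4.3.3; trend and robust empirical Bayes; two-sided; Benjamini-Hochberg, threshold 0.05). The logarithm understates changes of low genes. Each fold is a ratio of group means in CPM, SD is over n = 3, and SE comes from limma. Alternatives were other pseudocounts (0.1 and 2), filters, scalings and thresholds, limma without trend or robust, a replicate block, edgeR 4.0.16 and DESeq2 1.42.0 on the recovered reads, libraries left out in turn, and removal of genes within 5% of an overlapping gene. The test was tried on simulated data.

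Positions, exons and overlaps are from GENCODE release 29 (GRCh38, the assembly of hg38), where all 15496 symbols were found, and 2 of the 98 genes have several identifiers. Genes that overlap the exons of a gene described here, at 10% of its level or more, are given in the text. Exons were counted in the principal coding transcript or, where none was marked, in the longest coding transcript of the basic set. Promoters are from RefSeq. The genes, lists and tests were chosen with earlier results of these data known. Named genes are, per subgroup, up to 3 called genes of at least 5 CPM with the largest difference, all uncalled genes, a fixed set of central subunits and the 10 partners with the largest difference. Other genes are named to complete a complex, and were chosen after their values were seen.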

Additional observations from a re-analysis of the deposited data

How the results depend on the processing

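For the 98 genes, all calls and the directions of all called genes were kept with pseudocounts of 0.1 and 2, without a filter, with edgeR and DESeq2 on the recovered reads, and without B23 replicate 1 or 3. Scaling changed most. With listed-gene total scaling 5 polymerase II genes (8 as reported), 6 TBP and TAF genes (10) and 5 elongation and SAGA SPT genes (8) were higher, 4 elongation and SAGA SPT genes were lower (2), 7 of the 98 were at least 2-fold higher (15), and the median of the 98 was -0.24 (0.0051). With median-of-ratios scaling 2 polymerase II genes were lower (5) and the median was 0.10, and with TMM scaling 3 were lower and the median was 0.079. With quantile normalization 7 genes were at least 2-fold lower (11) and the median was -0.0038. Without the genes that share reads 1 elongation gene was lower (2), since ELL3 was left out. Without 1 library in turn the median was 0.0065 to 0.030.

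The following log2 differences, called as reported or under the alternative, turned sign. With listed-gene total scaling they were -0.081 for POLR2F, -0.042 for POLR2H, -0.14 for MED4, -0.24 for MED28, -0.24 for MED30, -0.066 for MED12L, -0.074 for TAF15, -0.16 for CCNH, -0.054 for SUPT3H and -0.089 for SUPT7L. With quantile normalization they were -0.040 for POLR2H, 0.16 for MED20, -0.25 for MED28, -0.34 for TAF15, -0.20 for SUPT16H and -0.035 for SUPT7L, and with median-of-ratios scaling 0.095 for MED24 and 0.086 for TAF9. Differences called in neither setting also turned sign, reaching 0.027 for POLR2B, 0.0022 for POLR2K, 0.085 for TAF8 (all with median-of-ratios scaling), 0.021 for MED17 and 0.076 for ELL (both with quantile normalization), and those of MED20, MED24, MED28, MED30 and TAF8 did so when 1 library was left out. The cause was not tested.

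Libraries of the same number did not deviate together (correlations of 0.026, -0.070 and -0.062), so the replicate numbers were not taken as pairs. With the replicate block 47 of the 98 genes were higher and 41 lower, and the added call was POLR2K (adjusted p = 0.040). Reads limit little here, since the gene of the set with the fewest still had 135 in a library.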
